A study of Mus musculus with 6 samples.

Results

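The genes described here encode the enzymes that make reactive oxygen and nitric oxide in the colon wall: Duox2 and its maturation factor Duoxa2, Nox1 with its subunits Noxo1, Noxa1 and Cyba, the phagocyte oxidase gene Cybb, and Nos2, the inducible nitric oxide synthase. These 8 genes were chosen by name with their FPKM (fragments per kilobase of transcript, scaled to the mapped fragments of the library) in the TNFR2 knockout and wildtype libraries already known, so their difference between genotypes is given as a description, without a test. Each of the 8 names filled 1 of the 24617 rows of the deposited table. The rows lie on chromosome 2 for Duox2 (122279243 to 122298791), Duoxa2 (122298900 to 122302885) and Noxa1 (25078930 to 25095205), on chromosome X for Nox1 (134059189 to 134111708) and Cybb (9435252 to 9469324), on chromosome 17 for Noxo1 (24696234 to 24707653), on chromosome 8 for Cyba (122424771 to 122432940) and on chromosome 11 for Nos2 (78920859 to 78960124), all in mm10.

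Messenger RNA of the distal colon was measured in 3 male C57Bl/6 TNFR2 knockout mice (TNFR2-/-) and in 3 male C57Bl/6 wildtype mice, all aged 8 weeks and with no treatment named. TNFR2 is the second receptor for tumor necrosis factor, encoded by Tnfrsf1b. The labels do not say which part of the gene was removed, or whether the genotypes were littermates. Libraries were sequenced to 50M paired-end reads on average, 50 bases long, and the table gives no counts, so the depth behind a single value is not known.

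Superoxide and hydrogen peroxide are released into the colon lumen by oxidases in the apical membrane of the epithelium, where they limit contact with bacteria. NOX1 needs the membrane partner p22phox (Cyba), the organizer NOXO1, the activator NOXA1 and the small GTPase RAC1, while DUOX2 needs DUOXA2 to leave the endoplasmic reticulum and makes hydrogen peroxide directly. Cybb encodes the catalytic subunit of the oxidase of macrophages and neutrophils, which also uses p22phox, and NOS2 makes nitric oxide from arginine after induction by interferon gamma and microbial products.

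The sequences that bear on the values below are the stretch shared by Duox2 and Duoxa2, and the promoter of Cybb, the member that averaged lowest in the knockout relative to wildtype. They are from RefSeq (GRCm38.p6, the same assembly as mm10). In the deposited positions Duox2 runs to the left on the minus strand and Duoxa2 to the right on the plus strand, with 108 bases between their ends (chr2:122298792-122298899). These bases are printed on the plus strand, with the letters TATAAA in capitals. For Cybb the 250 bases before the deposited start, which is also that of the promoter table, are given on the minus strand (chrX:9469325-9469574), with matches to GAAANNGAA on either strand, the core of an interferon response element, in capitals. Transcripts of Cybb that start further upstream are also annotated.
Duox2-Duoxa2: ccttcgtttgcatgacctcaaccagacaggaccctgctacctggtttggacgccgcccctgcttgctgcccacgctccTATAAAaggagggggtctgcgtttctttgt
Cybb: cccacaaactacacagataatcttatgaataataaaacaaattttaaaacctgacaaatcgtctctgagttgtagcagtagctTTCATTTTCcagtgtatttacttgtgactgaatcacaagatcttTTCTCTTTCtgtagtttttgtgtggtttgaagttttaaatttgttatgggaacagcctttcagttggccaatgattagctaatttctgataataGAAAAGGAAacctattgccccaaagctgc

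Promoter windows of 300 bases (250 before to 50 after a gene's start) were found for 7 of the 8 genes, all but Nos2. That of Duox2 begins inside its deposited row and so does not hold the shared stretch. Of these 7 windows, the Cybb window alone held GAAANNGAA, at 3 places, and 8.55% of 32817 promoter windows held it at least once. None of the 7 windows held TTCNNNGAA (a STAT core, in 8.29% of promoters), GGANTTTCC (an NF-kB core, in 1.26%) or TGACTCA (AP-1, in 5.2%). TATAAA, looked for after the sequence had been read, stood 30 bases before the start of Duoxa2 and in no other window of the 7, against 13.6% of all promoters on either strand. These matches describe letters and show neither binding nor its absence.

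The check of the genotype came first. Tnfrsf1b measured 1.17, 1.12 and 0.924 FPKM in the knockout libraries, against 7.49, 8.20 and 8.17 FPKM in the wildtype libraries, and fell by 2.11 ± 0.08 on the log2(FPKM + 1) scale (SE; limma, Benjamini-Hochberg adjusted p = 7.1e-05). Libraries also differed in markers of skin and skeletal muscle, tissues that lie next to the distal colon. The summed level of 12 skin markers was 72.9, 617 and 1119 FPKM in knockout libraries 1, 2 and 3, against 1248, 485 and 1307 FPKM in wildtype libraries 1, 2 and 3. For 9 skeletal muscle markers the sums were 120, 1547 and 1102 FPKM in the knockout and 6981, 2140 and 2491 FPKM in the wildtype. Knockout library 1 was lowest in both, and wildtype libraries 1 and 3 were the highest in both. The epithelium itself was present throughout: 8 epithelial markers summed to 3618 to 4676 FPKM in the knockout and 3399 to 4911 FPKM in the wildtype, among them Epcam at 631 to 772 FPKM in the knockout and 558 to 769 FPKM in the wildtype.

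By mean level over the 6 libraries, in FPKM, the order was Cyba (112), Noxo1 (25.4), Noxa1 (18.8), Nox1 (9.84), Duox2 (6.39), Duoxa2 (6.18), Cybb (2.75) and Nos2 (0.222). Each gene exceeded the next in all 6 libraries, except that Duox2 exceeded Duoxa2 in 3 of the 6, all of them knockout libraries. The ranges of Noxo1 and Noxa1, of Nox1 and Duox2, and of Duox2 and Duoxa2 overlapped over the 6 libraries. The partners of NOX1 were thus listed above its catalytic gene: per library, the ratio of Noxo1 to Nox1 lay between 1.90 and 3.20.

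**Figure D1:**
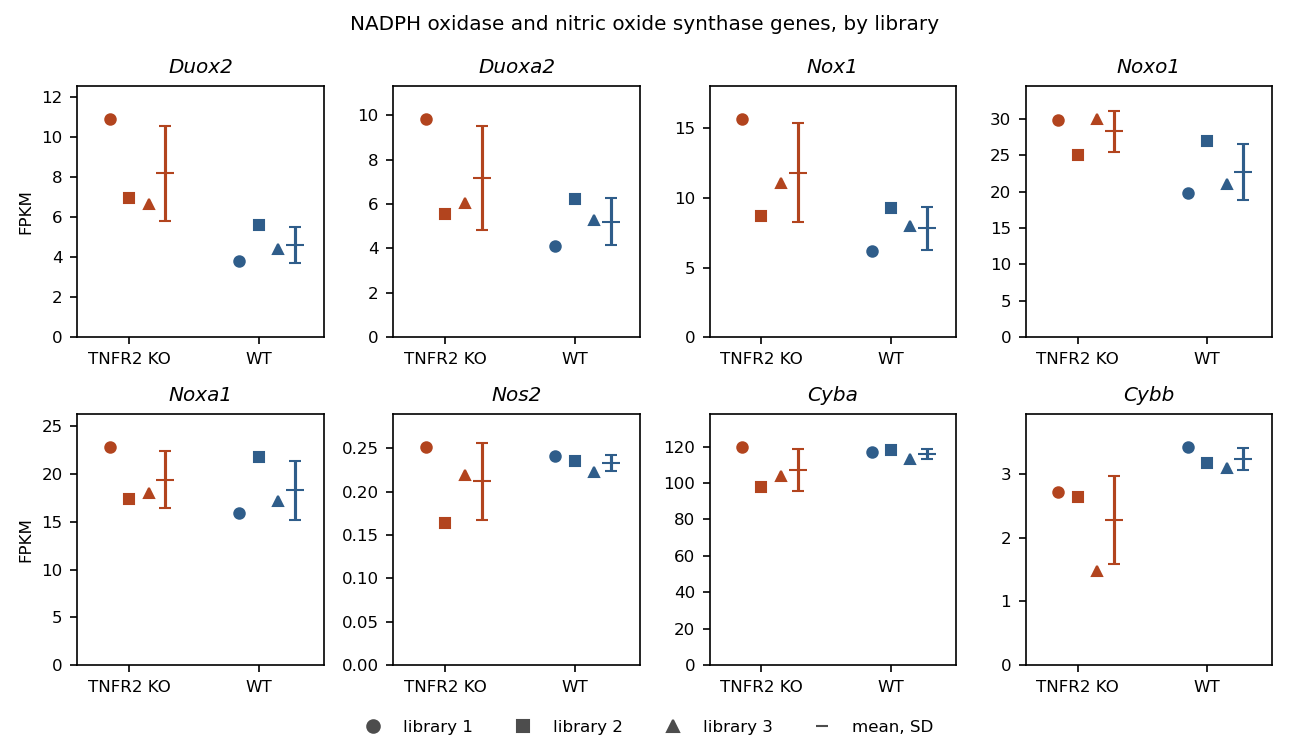
FPKM of the 8 genes (y axis, from 0, a scale per gene) in the TNFR2 knockout (KO) and wildtype (WT) libraries; points are libraries 1 to 3 and bars the mean and SD of 3. The KO and WT points of Duox2 and Cybb do not overlap, with Duox2 higher and Cybb lower in KO. KO library 1 is the highest KO point of every gene but Noxo1.

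Duox2, which encodes the dual oxidase of the colon surface, measured 10.9, 6.96 and 6.66 FPKM in the knockout libraries, against 3.81, 5.59 and 4.42 FPKM in the wildtype libraries. Every knockout library lay above every wildtype library. Means were 8.18 ± 2.37 FPKM in knockout and 4.61 ± 0.903 FPKM in wildtype colon (SD, n = 3 each), a ratio of 1.77 and a log2 change of 0.69 ± 0.20 (SE). In the authors' deposited table Duox2 was the 1 member with an adjusted p under 0.05, at 0.0109, beside 1.21% of all 20840 rows that carried a test there, and the other 7 members had none. By limma on log2(FPKM + 1), 0 of the 7 members that reached the minimum level had an adjusted p under 0.05, beside 0.288% of the 14564 genes tested. At an unadjusted p under 0.05 they were 3 of 7, beside 16.2% of the genes tested. Groups did not overlap for 2 members, Duox2 and Cybb, beside 21.8% of the genes tested. Since the members were picked with this comparison in view, nothing is read from these counts.

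Duoxa2, the maturation factor, measured 9.85, 5.57 and 6.05 FPKM in the knockout libraries, against 4.12, 6.22 and 5.28 FPKM in the wildtype libraries. Here the groups overlapped, with wildtype library 2 above knockout libraries 2 and 3. Means were 7.16 ± 2.34 FPKM in knockout and 5.21 ± 1.05 FPKM in wildtype colon (SD, n = 3 each), a log2 change of 0.37 ± 0.22 (SE). Both genes had their highest knockout value in library 1 and their lowest wildtype value in library 1.

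Within a library the balance of the pair differed by genotype. The ratio of Duox2 to Duoxa2 was 1.11, 1.25 and 1.10 in the knockout libraries, against 0.925, 0.899 and 0.837 in the wildtype libraries, so that Duox2 exceeded its partner in each knockout library and in no wildtype library. A ratio within 1 library does not depend on the scaling between libraries. It shows unequal differences in the pair, not which of them is unchanged. How often other pairs of genes separate like this was not computed. In the GENCODE annotation 42.8% of the exon bases of Duoxa2 are also exon bases of Duoxa1 on the other strand. The deposited rows of these genes do not overlap, with 663 bases between them. No source used here says whether reads were assigned by strand, which leaves the level of Duoxa2 uncertain.

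**Figure D2:**
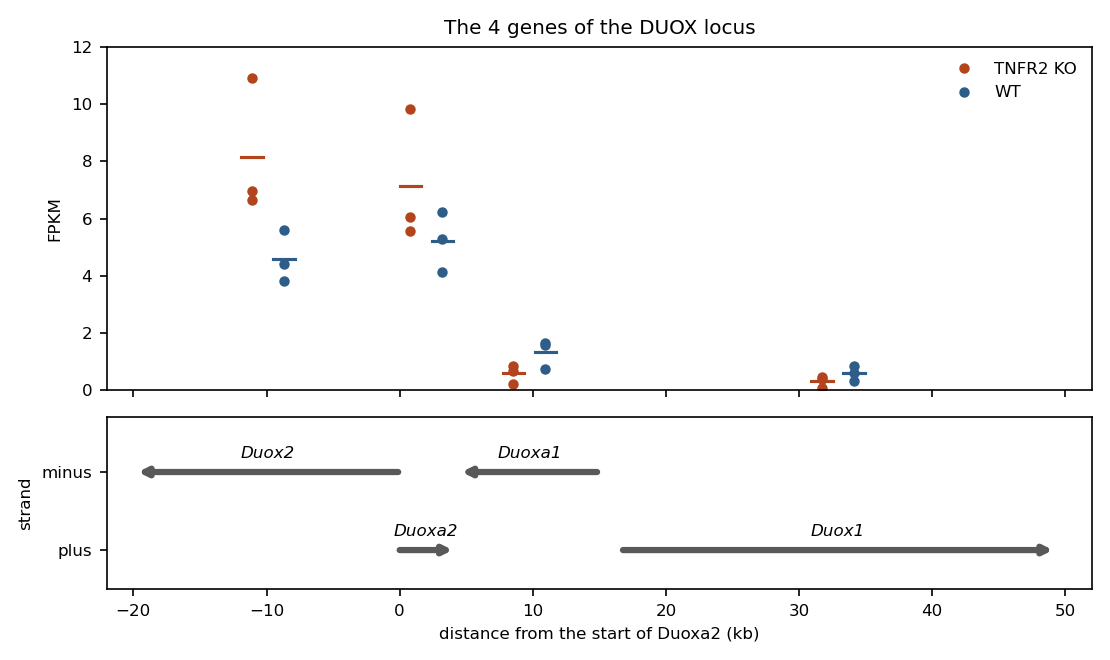
Upper panel, FPKM (y axis) of Duox2, Duoxa2, Duoxa1 and Duox1 in KO (left of each pair) and WT libraries, each pair drawn at its gene's midpoint, with lines at the means of 3; lower panel, the direction of each gene against the distance from the start of Duoxa2 in kb. Duox2 and Duoxa2 average higher in KO, at 8.18 and 7.16 FPKM, while Duoxa1 and Duox1 stay under 2 FPKM and average lower, at 0.594 and 0.316 FPKM.

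Duox2 and Duoxa2 share a stretch of 68730 bases on chromosome 2 (122279243 to 122347972, mm10) with the homologous pair Duoxa1 and Duox1, which are no members. Duoxa1, the maturation factor of DUOX1, measured 0.236, 0.687 and 0.858 FPKM in the knockout libraries, against 1.59, 0.748 and 1.65 FPKM in the wildtype libraries (log2 change -0.54 ± 0.21, SE; limma, Benjamini-Hochberg adjusted p = 0.29). Duox1, the homologue best known from airway, thyroid and skin, averaged 0.316 ± 0.197 FPKM in knockout and 0.601 ± 0.269 FPKM in wildtype colon (SD, n = 3 each) and was too low to test. Both had their lowest value in knockout library 1 and their highest in wildtype library 3, the libraries with the lowest and the highest skin marker sums, and the part of skin in these values was not tested.

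Nox1, the catalytic gene of the colon epithelial oxidase, measured 15.7, 8.70 and 11.1 FPKM in the knockout libraries, against 6.20, 9.29 and 8.01 FPKM in the wildtype libraries. Wildtype library 2 lay above knockout library 2, and the other 2 knockout libraries lay above all wildtype libraries. Means were 11.8 ± 3.57 FPKM in knockout and 7.83 ± 1.56 FPKM in wildtype colon (SD, n = 3 each), a log2 change of 0.52 ± 0.22 (SE).

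Of the cytosolic partners, Noxo1, the organizer, measured 29.8, 25.0 and 30.0 FPKM in the knockout libraries, against 19.8, 27.0 and 21.1 FPKM in the wildtype libraries. Its log2 change was 0.32 ± 0.13 (SE), and wildtype library 2 again lay above knockout library 2. Noxa1, the activator, measured 22.9, 17.4 and 18 FPKM in the knockout libraries, against 15.9, 21.8 and 17.2 FPKM in the wildtype libraries. Its groups were interleaved, with a log2 change of 0.09 ± 0.14 (SE).

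Not every subunit kept a similar ratio to Nox1 in both genotypes. The ratio of Noxa1 to Nox1 was 1.46, 1.99 and 1.62 in the knockout libraries and 2.56, 2.34 and 2.14 in the wildtype libraries, lower in every knockout library. That of Cyba to Nox1 was 7.61, 11.2 and 9.40 in the knockout and 18.8, 12.7 and 14.1 in the wildtype libraries, also without overlap. Cyba also serves the phagocyte oxidase, and the part of phagocytes in this ratio was not tested. The ratio of Noxo1 to Nox1 overlapped, at 2.49 ± 0.519 in knockout and 2.91 ± 0.283 in wildtype libraries (SD, n = 3 each). How often the ratios of other gene pairs separate the genotypes was not computed.

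Rows of 3 members share their deposited position with a gene on the other strand. In GENCODE, 60.2% of the exon bases of Noxo1 are also exon bases of Tbl3, a nucleolar protein gene, 15.6% of those of Nox1 belong to Cstf2, a polyadenylation factor gene, and 3.09% of those of Noxa1 to Entpd8, a nucleotide hydrolase gene. Tbl3 averaged 9.42 ± 0.464 FPKM in knockout and 11.3 ± 0.421 FPKM in wildtype colon, opposite in direction to Noxo1. Cstf2 averaged 12.2 ± 1.57 FPKM in knockout and 10.7 ± 0.884 FPKM in wildtype colon, and Entpd8 35.6 ± 2.60 and 30.3 ± 6.60 FPKM in the same order (SD, n = 3 each). No source used here says how shared reads were assigned, which leaves the levels of Noxo1 and Nox1 uncertain to that extent.

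**Figure D3:**
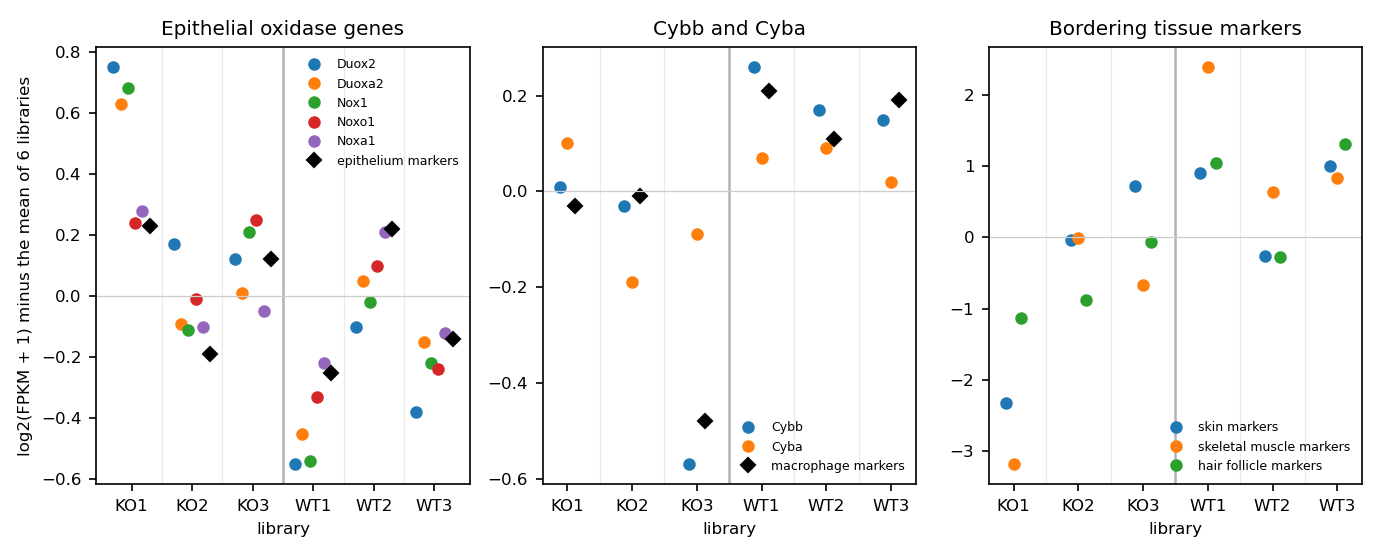
Values of log2(FPKM + 1) minus the mean of the 6 libraries (y axis) in KO libraries 1 to 3 and WT libraries 1 to 3 (x axis), for the epithelial oxidase genes, for Cybb and Cyba, and for marker lists (black diamonds and, at right, colored points are list means). Cybb lies close to the macrophage markers in each library, and Duox2 is above the epithelium markers in KO libraries 1 and 2 (0.75 and 0.17 against 0.23 and -0.19), level with them in KO library 3 (0.12) and below them in all 3 WT libraries.

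Library extremes were partly shared among the epithelial genes. In the wildtype, Duox2, Duoxa2, Nox1, Noxo1 and Noxa1 were each lowest in library 1 and highest in library 2. In the knockout, 4 of these were highest in library 1, the exception being Noxo1 with 29.8 FPKM in library 1 and 30.0 FPKM in library 3. Duoxa2, Nox1, Noxo1 and Noxa1 were lowest in knockout library 2, and Duox2 was lowest in knockout library 3. These extremes were not particular to the epithelial genes. Nos2, Cyba and Cybb were also highest among knockout libraries in library 1. Nos2 and Cyba were also lowest in knockout library 2, and Cyba was highest in wildtype library 2. The mean of the epithelial markers, centered on its mean of 6 libraries, ran in the same direction in those libraries, with 0.23 on the log2 scale in knockout library 1, -0.25 in wildtype library 1 and 0.22 in wildtype library 2. In knockout library 2 the markers stood at -0.19 and Duox2 at 0.17.

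Set against the epithelial markers of the same library, the log2 change was 0.58 ± 0.16 for Duox2, 0.41 ± 0.14 for Nox1, 0.21 ± 0.05 for Noxo1, 0.26 ± 0.16 for Duoxa2 and -0.02 ± 0.08 for Noxa1 (SE, n = 3 each). On this scale knockout and wildtype libraries did not overlap for Duox2, Nox1 and Noxo1, and they overlapped for Duoxa2 and Noxa1. The share of all genes without overlap on this scale was not computed, so nothing is read from this count.

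Markers of surface colonocytes and of goblet cells also averaged higher in the knockout. The 8 surface colonocyte markers, 6 of them with higher means, summed to 2885 to 4202 FPKM in the knockout and 2670 to 3689 FPKM in the wildtype libraries, and their mean differed by 0.26 on the log2 scale. Among them Slc20a1, a phosphate transporter gene, averaged 85.7 ± 10.4 FPKM in knockout and 50.8 ± 4.18 FPKM in wildtype colon (SD, n = 3 each). It was the 1 marker of the 8 without overlap, beside 9.3% of all tested genes with the knockout above. Krt20 and Guca2a, the 2 with lower means, stood at 92.2% and 99.8% of wildtype. The 7 goblet cell markers all had higher means, with sums of 5434 to 8450 FPKM in the knockout and 5218 to 6711 FPKM in the wildtype libraries and a mean difference of 0.21.

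Relative to the surface colonocyte markers, a comparison chosen after seeing the data, the log2 change was 0.43 ± 0.19 for Duox2, 0.26 ± 0.15 for Nox1, 0.05 ± 0.06 for Noxo1, 0.11 ± 0.18 for Duoxa2 and -0.18 ± 0.12 for Noxa1 (SE, n = 3 each). On that scale Duox2 was higher and Noxa1 lower in every knockout library than in every wildtype library, and Nox1, Noxo1 and Duoxa2 overlapped. Relative to the goblet cell markers the log2 change of Duox2 was 0.48 ± 0.11 (SE), again without overlap, and that of Nox1 was 0.31 ± 0.13 (SE), with overlap. Here too the share of all genes without overlap was not computed.

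Without knockout library 1, log2 changes on the deposited scale were 0.49 for Duox2, 0.31 for Nox1, 0.28 for Noxo1, 0.15 for Duoxa2 and -0.03 for Noxa1. A further comparison left out knockout library 1 and wildtype libraries 1 and 3, the extremes in both skin and muscle marker sums. The changes were then 0.24 for Duox2, 0.07 for Nox1, 0.02 for Noxo1, -0.08 for Duoxa2 and -0.29 for Noxa1. The libraries kept, knockout 2 and 3 and wildtype 2, were not alike in skin markers, with sums of 617, 1119 and 485 FPKM. A skin marker covariate, with all 6 libraries, gave 0.44 for Duox2, 0.29 for Nox1, 0.24 for Noxo1, 0.11 for Duoxa2 and -0.08 for Noxa1.

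**Figure D4:**
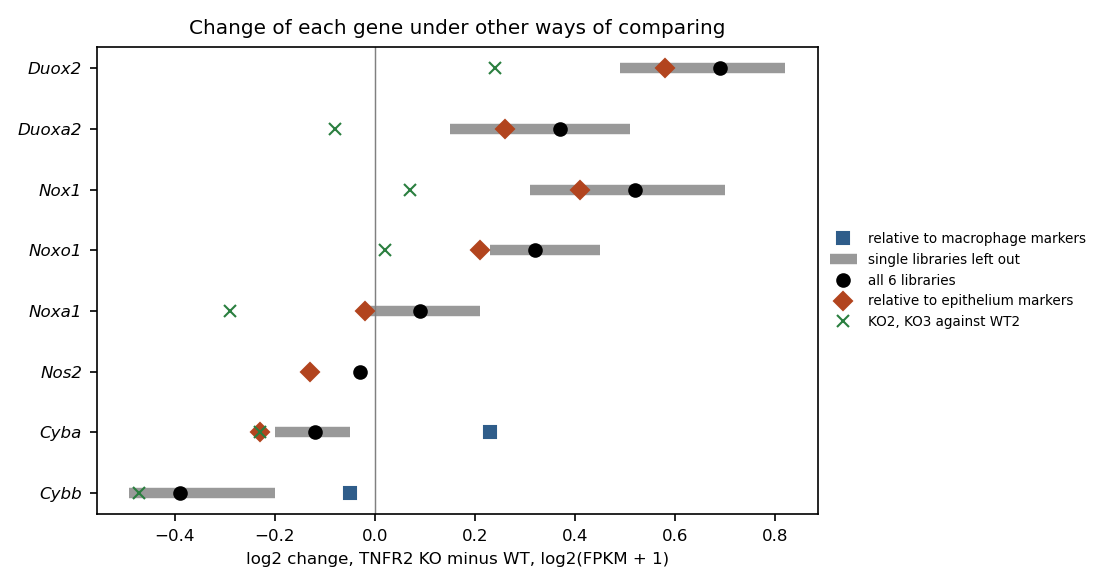
Log2 change of each gene, KO minus WT, on the log2(FPKM + 1) scale (x axis): all 6 libraries (black), the range when single libraries are left out (grey), the change relative to epithelial or macrophage markers of the same library (diamonds and squares), and KO libraries 2 and 3 against WT library 2 (crosses). Duox2 stays above 0 in all of these, from 0.24 to 0.82, while Duoxa2 and Noxa1 reach -0.08 and -0.29. For Nos2, under the minimum level, 2 values are drawn.

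Cybb, the catalytic gene of the phagocyte oxidase, measured 2.71, 2.63 and 1.48 FPKM in the knockout libraries, against 3.43, 3.17 and 3.10 FPKM in the wildtype libraries. All knockout libraries were lower, and knockout library 3 was the lowest. Means were 2.27 ± 0.687 FPKM in knockout and 3.23 ± 0.173 FPKM in wildtype colon (SD, n = 3 each), 70.4% of wildtype and a log2 change of -0.39 ± 0.16 (SE). Without knockout library 3 the log2 change was -0.20.

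Macrophage markers had the same pattern over the libraries. Of 12 markers, 11 had lower means in the knockout and 9 did not overlap between genotypes, all with the knockout below, beside 12.5% of all tested genes in that direction. Their summed level was 305 to 434 FPKM in knockout and 503 to 568 FPKM in wildtype libraries, with the lowest sum in knockout library 3. Relative to the mean of these markers in the same library, the log2 change of Cybb was -0.05 ± 0.05 (SE, n = 3 each), and the groups overlapped. In bulk tissue, fewer cells of a type and less RNA per cell cannot be told apart. Neutrophil markers were scarce: of 9 with a row, Elane and Ngp were listed at 0 in all 6 libraries, 3 reached a mean of 0.5 FPKM, and the sum spanned 3.16 to 19.8 FPKM in knockout and 6.92 to 15.1 FPKM in wildtype libraries.

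Cyba, whose product p22phox pairs with both NOX1 and the phagocyte enzyme, was the most abundant of the 8. It measured 120, 97.6 and 104 FPKM in the knockout libraries, against 117, 118 and 113 FPKM in the wildtype libraries. Wildtype libraries spanned a narrow range and knockout libraries lay on both sides of it, with a log2 change of -0.12 ± 0.09 (SE). Relative to epithelial markers its log2 change was -0.23 ± 0.15, and relative to macrophage markers 0.23 ± 0.17 (SE, n = 3 each).

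Nos2 was close to the lower end of what was measured. It measured 0.252, 0.164 and 0.219 FPKM in the knockout libraries, against 0.241, 0.235 and 0.223 FPKM in the wildtype libraries, and the groups overlapped. Its mean of 0.222 FPKM was under the minimum of 0.5 FPKM set here for testing, so no test was made. Its log2 change was -0.03, with a spread between libraries of the same genotype of 0.038 (pooled SD, log2(FPKM + 1)). Constitutive relatives were higher. Nos3, the endothelial synthase, measured 1.38, 1.45 and 1.16 FPKM in the knockout and 2.32, 1.76 and 2.33 FPKM in the wildtype libraries. Its log2 change was -0.42 ± 0.11 (SE; limma, Benjamini-Hochberg adjusted p = 0.21), with no overlap, beside 12.5% of all tested genes with the knockout below. Beside this, all 8 endothelial markers had lower means in the knockout, with sums of 57.1 to 77.5 FPKM against 75.4 to 104 FPKM in the wildtype, and their part in the value of Nos3 was not tested. Nos1, the neuronal synthase, averaged 2.05 ± 0.766 FPKM in knockout and 2.79 ± 0.973 FPKM in wildtype colon (SD, n = 3 each; limma, adjusted p = 0.55).

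The profiles most like those of the members were sought among 12789 tested single named genes, as the root mean square distance between log2(FPKM + 1) profiles centered on their means over the 6 libraries. For Nox1 the nearest were Clca4, of the family of chloride channel regulators (0.0688), Cd38, an NAD hydrolase (0.0867), and Tgm3, a transglutaminase (0.0958). Duoxa2, at 0.0985, had 4 genes closer to Nox1 than itself. For Duox2 they were Clca4 (0.108), Ptk6, an epithelial tyrosine kinase (0.127), and Hao2, a peroxisomal oxidase that produces hydrogen peroxide (0.128). Clca4 measured 62.1, 35 and 42.7 FPKM in the knockout libraries, against 25.6, 34.5 and 28.6 FPKM in the wildtype libraries. For Cybb the nearest were Tnfrsf17, a receptor of plasma cells that is itself under 1 FPKM (0.0258), Csf1r, the receptor that macrophages need for survival (0.0379), and Rwdd2a (0.0486). Csf1r averaged 16.2 ± 3.67 FPKM in knockout and 21.9 ± 0.885 FPKM in wildtype colon (SD, n = 3 each). At the level of Nos2 the profile is almost flat, and its nearest genes, Smu1, Atp6v1c1 and Jtb at 0.00789 to 0.0110, were likewise flat. These distances describe 6 libraries that also share their tissue content.

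The question of whether the rest of the pathway differed was put to 4 lists of other genes. Of 81 genes, 79 had a row of their own and 70 were high enough to test, and limma with Benjamini-Hochberg adjustment called 0 of the 70, with a smallest adjusted p of 0.18. At an unadjusted p under 0.05 there were 9, or 12.9%, beside 16.2% of all tested genes. In simulated data with the spread of these libraries, 28% of 200 genes changed by 0.5 on the log2 scale were called. For a change of 1.0 it was 87.5% of 200. Recovery for the 70 list genes themselves, some of them close to the minimum level, was not tested. The 0 calls therefore do not show that these genes were unchanged.

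Among other subunits, homologues and peroxidases, 11 of 16 genes were tested, of which 8 averaged lower and 3 higher in the knockout. Their median log2 change was -0.23, beside -0.03 over all tested genes. At an unadjusted p under 0.05 there were 3, or 27.3%, beside 16.2% of all tested genes. Groups did not overlap for 4 of the 11, or 36.4%, beside 21.8% of all tested genes. The phagocyte subunit Ncf4 (p40phox) measured 2.82, 4.05 and 2.90 FPKM in the knockout and 4.73, 4.51 and 4.48 FPKM in the wildtype libraries (log2 change -0.40 ± 0.12, SE; limma, adjusted p = 0.24). The leukocyte GTPase gene Rac2 averaged 2.97 ± 0.931 FPKM in knockout and 4.07 ± 0.294 FPKM in wildtype colon (SD, n = 3 each; limma, adjusted p = 0.34), both without overlap. Rac1, the form found in every cell type, averaged 167 ± 9.72 and 160 ± 8.6 FPKM in the same order. Pxdn, a peroxidase of the extracellular matrix, averaged 12.2 ± 1.5 FPKM in knockout and 14.4 ± 2.32 FPKM in wildtype colon. Nox3 and the eosinophil peroxidase gene Epx were listed at 0 in all 6 libraries.

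Enzymes that remove superoxide and peroxide included the most abundant genes named here. All 23 genes were tested and limma called 0, beside 0.288% of all tested genes. At an unadjusted p under 0.05 there were 2, or 8.70%, beside 16.2% of all tested genes. In the knockout 14 averaged lower and 9 higher, and the median log2 change was -0.05. Groups did not overlap for 1 gene, or 4.35%, beside 21.8% of all tested genes. Prdx6, a peroxiredoxin, averaged 1545 ± 188 FPKM in knockout and 1367 ± 267 FPKM in wildtype colon, and thioredoxin (Txn1) 803 ± 101 and 744 ± 65.3 FPKM in the same order (SD, n = 3 each). Gpx2, the glutathione peroxidase of the gut epithelium, averaged 337 ± 77.5 FPKM in knockout and 290 ± 47.3 FPKM in wildtype colon. The widest differences were those of Gpx8 and Sod3, genes of the endoplasmic reticulum and of the extracellular space, at log2 changes of -0.37 ± 0.18 and -0.35 ± 0.14 (SE; limma, adjusted p = 0.36 and 0.30), and Gpx3, a secreted form, stood at 85.6% of wildtype.

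For nitric oxide synthesis and response, 16 genes were tested and limma called 0, beside 0.288% of all tested genes. At an unadjusted p under 0.05 there was 1, or 6.25%, beside 16.2% of all tested genes. That gene was Pts, which acts in the synthesis of tetrahydrobiopterin, the cofactor of nitric oxide synthases. Pts measured 30.1, 32.3 and 30.5 FPKM in the knockout libraries, against 25.6, 25.9 and 24.6 FPKM in the wildtype libraries (log2 change 0.28 ± 0.06, SE; limma, adjusted p = 0.18), with a close spread in both genotypes. Spr, which completes that synthesis, and Qdpr, which recycles the cofactor, averaged 67.1 ± 7.78 and 74.8 ± 5.61 FPKM in knockout against 61.5 ± 2.85 and 67.5 ± 3.72 FPKM in wildtype colon (SD, n = 3 each). Arg1, an arginase that competes for arginine, measured 0.870, 12.3 and 11.4 FPKM in the knockout and 21.8, 11.0 and 29.1 FPKM in the wildtype libraries (log2 change -1.58 ± 0.95, SE; limma, adjusted p = 0.46). Its lowest value was in knockout library 1 and its highest in wildtype library 3, as for the skin markers. With the skin marker level as a covariate its log2 change was -0.52, and without knockout library 1 it was -0.65. In knockout libraries 2 and 3 against wildtype library 2 it was 0.10. The arginine transporter Slc7a2 averaged 0.859 ± 0.427 and 1.27 ± 0.538 FPKM, and Gucy1a3, a subunit of the nitric oxide receptor, 8.41 ± 1.79 and 10.8 ± 2.33 FPKM, knockout before wildtype (SD, n = 3 each). The median log2 change of the 16 was -0.04, and groups did not overlap for 2, or 12.5%, beside 21.8% of all tested genes.

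Of the signals known to induce these genes, the ligands were low or listed at 0. Il22, a cytokine known to raise epithelial Duox2, and Il17a were listed at 0 in all 6 libraries, and Ifng averaged 0.0228 ± 0.0199 FPKM in knockout and 0.0262 ± 0.0454 FPKM in wildtype colon (SD, n = 3 each). Tnf averaged 0.554 ± 0.133 FPKM in knockout and 0.561 ± 0.0501 FPKM in wildtype colon, and Il1b, an inflammatory cytokine gene, 0.882 ± 0.502 and 0.968 ± 0.444 FPKM in the same order (SD, n = 3 each). Ifngr1 and Ifngr2, the most highly expressed genes of this list, averaged 141 ± 9.38 and 83.6 ± 5.37 FPKM in knockout against 122 ± 15.5 and 73.9 ± 9.68 FPKM in wildtype colon. Of 20 genes tested limma called 0, beside 0.288% of all tested genes, and the median log2 change was 0.04. At an unadjusted p under 0.05 there were 3, or 15%, beside 16.2% of all tested genes. Groups did not overlap for 3, or 15%, beside 21.8% of all tested genes. Tlr4, the receptor for lipopolysaccharide, measured 5.76, 5.05 and 4.99 FPKM in the knockout and 4.33, 4.38 and 4.13 FPKM in the wildtype libraries (log2 change 0.24 ± 0.08, SE; limma, adjusted p = 0.25). Tnfrsf1a, the other TNF receptor, measured 54.4, 46.6 and 51.9 FPKM in the knockout and 61.6, 58.2 and 61.0 FPKM in the wildtype libraries (log2 change -0.24 ± 0.08, SE; limma, adjusted p = 0.26). The interferon regulatory factor Irf1 averaged 69.3 ± 5.38 FPKM in knockout and 58.5 ± 9.94 FPKM in wildtype colon, and the IL-22 receptor chain Il22ra1 17.4 ± 1.00 and 14.9 ± 2.23 FPKM in the same order (limma, adjusted p = 0.37 and 0.36).

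**Figure D5:**
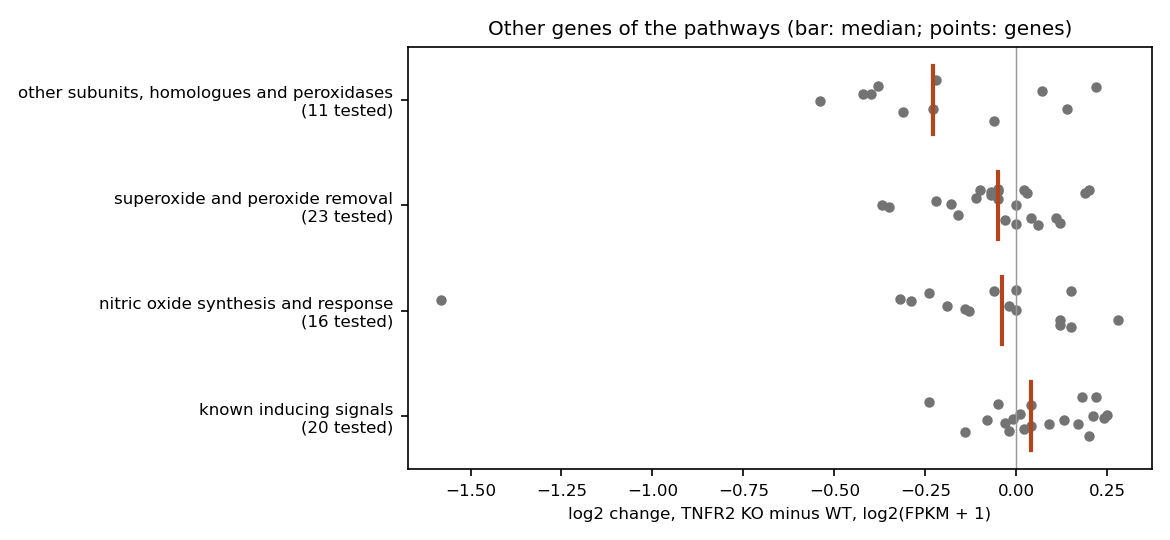
Log2 change, KO minus WT on the log2(FPKM + 1) scale (x axis), of the tested genes of 4 lists (points, spread vertically for legibility) with the median of each list (bar). Medians lie between -0.23 and 0.04, and the point at -1.58 is Arg1.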

How the data were processed

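The authors deposited 1 table with a value in FPKM per gene and library and, for each genotype, their group FPKM, log2 fold change, p-value and adjusted p-value, per the file headers. Alignment used Tophat2 and Bowtie2, assembly Cufflinks and testing Cuffdiff 2, per the series' design text, on mm10, per the submitters' processing notes. Other versions, the annotation, strandedness and the authors' scaling of libraries are not stated. Values in FPKM are not counts. The steps of low values put relative depth at an estimated 0.736 to 1.10 times that of wildtype library 1. No counting interval was computed.

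The test was limma 3.58.1 (R 4.3.3) on log2(FPKM + 1), with moderation that was robust and followed an intensity trend, over 14564 named rows with a mean of at least 0.5 FPKM, with Benjamini-Hochberg adjustment over all of them, all 6 libraries and no covariate. The pseudocount of 1 understates changes of low genes. Standard errors of log2 changes are from limma, except those relative to marker lists, which are from the 3 libraries per genotype. The 6.13% of rows with no gene name, 17.7% of the summed FPKM, were left out. The script was first tested on simulated data. Groups and replicate numbers came from the labels (n = 3 mice per genotype). Same-numbered libraries are not said to be paired.

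The members and lists were chosen with earlier results of these data known. Named from each list of other genes were any called, the 2 most highly expressed and the 4 with the largest change at a mean of at least 1 FPKM; for Duox2, Nox1, Nos2 and Cybb, the 3 nearest profiles. Neighbouring genes, Duox1, Duoxa1, Nox3, Epx, Ifng, Il17a, Il22, Tnf, Il1b, Slc20a1, Krt20 and Guca2a were named after their values were seen. List genes found only in rows of several genes were not used. Alternatives changed the pseudocount, the minimum level, the scaling, the variance model, the rows and the libraries, and added a replicate block or a skin covariate. Python 3.11.15 with pandas 2.3.3, numpy 2.4.6 and matplotlib 3.10.9 was used for tables and figures.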

Additional observations from a re-analysis of the deposited data

How the results depend on the processing

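All 4 lists of other genes had 0 calls under each of the 18 alternatives. Over all genes 42 were called, 29 to 47 under 7 other settings, 23 with a pseudocount of 0.01 or without small RNA genes and 27 with the skin covariate. Leaving out single libraries gave 21 to 74, and knockout library 3 or wildtype library 1, 2 or 3 moved the count by over 1.5 times (21, 27, 74 and 22 calls). With the replicate number as a block 24 were called. The deviations of same-numbered libraries from their group means correlated at -0.375, -0.337 and 0.209. Those of differently numbered libraries correlated at -0.235 to 0.467. Such correlations over all genes also carry tissue content, so they cannot decide whether the numbers pair mice. Without the 3 libraries that stand apart in skin and muscle markers, chosen after seeing the data, 130 genes were called; the lone wildtype library is assumed there to vary like the knockout libraries. Members with a higher mean in the knockout were 5, and 4 to 5 without single libraries, but 3 in that fit.

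Of 146 values of single members under alternatives, 133 moved by less than the spread between replicates and 13 by more, and 8 changed sign. The 133 include alternatives that cannot move a log2 change. These are other minimum levels, another variance model, the rows without small RNA genes and the replicate block. In the fit without those 3 libraries, 14 other named genes, none called in any fit, turned their direction: Rac1 (-0.03), Pxdn (0.09), Nos1 (0.26), Prdx6 (-0.17), Txn1 (-0.09), Gpx8 (0.04), Gpx2 (-0.12), Arg1 (0.10), Gucy1a3 (0.11), Slc7a2 (0.01), Ifngr1 (-0.04), Ifngr2 (-0.05), Irf1 (-0.07) and Il22ra1 (-0.03), as log2 changes. The cause was not tested. Low levels limit Nos2, Duox1, Ifng, the neutrophil markers and the genes listed at 0 most.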
